A study of Mus musculus with 12 samples.

Results

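The ISG15 conjugation (ISGylation) pathway and the interferon-linked ubiquitin genes were followed across 12 RNA-seq libraries of mouse oligodendrocyte precursor cells (OPCs). The members were taken by gene symbol, 9 genes of 55536 in the annotation. The rule named symbols and no measured value, but earlier results of these data were known when they were chosen. They are Isg15 (the modifier), Uba7 (its activating enzyme, E1), Ube2l6 (its conjugating enzyme, E2), Herc6 and Trim25 (ligases, E3), Usp18 (the protease that removes ISG15), Ubd (FAT10, a second modifier), and the ligases Rnf213 and Trim21.

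The OPCs were grown from brains of Sox10:Cre-RCE:loxP(EGFP) pups at postnatal days 4 to 6, in which Cre driven by Sox10 labels the oligodendrocyte lineage as a whole, on a mixed C57BL/6 and CD1 background. All libraries are labelled as Sox10GFP+ OPCs, although the protocol also names a selection for CD140a (the product of Pdgfra), and all carry the mouse model label EAE while the methods describe cultured cells of pups. Each of the 4 groups had 3 replicates from separate litters, with the brains of several pups pooled, and all cultures were kept in medium with PDGFaa and bFGF. Ctr cells received neither agent. EZH2i cells received EPZ011989, an inhibitor of the histone methyltransferase EZH2, at 1.5 μM over 4 days, renewed each 48 h. IFN-γ cells received IFN-γ at 100 ng/ml for 6 h, and cells with both agents received IFN-γ for 6 h after the 4 days of EZH2i, together with fresh EZH2i.

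ISG15 is a small protein made of a pair of ubiquitin-like domains. It is joined to other proteins by a chain of enzymes that parallels that of ubiquitin: an E1 activates it, an E2 carries it and an E3 passes it to the target, and USP18 takes it off again. FAT10 is another interferon-induced modifier, which directs its targets to the proteasome. Interferons bind receptors that activate transcription factors, and many of their target genes carry an interferon-stimulated response element (ISRE) or a gamma-activated site (GAS) near the start.

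RNA levels are given as CPM, read counts relative to the size of the library and scaled with TMM factors, from read pairs that Salmon assigned to transcripts and that were summed per gene. Levels of different genes are compared only in TPM, which accounts for transcript length. Library totals were between 17403893 and 66546052 counts (median 33625908), so a count of 3, taken here as the floor, stands for 0.0455 to 0.169 CPM. Summed OPC markers were at 8110 to 8380 CPM in Ctr and 5290 to 7130 CPM with IFN-γ. They were at 6700 to 7100 CPM with EZH2i and at 4300 to 5200 CPM with both agents, and all 7 were detected in every group. The 10 markers of microglia and macrophages summed to 0.734 to 1.74 CPM over the 12 libraries, and C1qa was at 0 counts in all of them. Astrocyte markers summed to 1170 to 2770 CPM. Markers of mature oligodendrocytes summed to 1470 to 1840 CPM in Ctr and 1390 to 1610 CPM with IFN-γ. They were at 808 to 1290 CPM with EZH2i and at 781 to 1270 CPM with both agents. The summed neuron markers were at 36.7 to 91.5 CPM without IFN-γ and 687 to 1650 CPM with it, nearly all of it Tubb3 in the latter, and the part of any of these in the members' values was not tested. In such bulk samples, fewer cells of a type and less RNA per cell cannot be told apart.

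The starts of the members were read for ISRE and GAS letters, because all of them were higher with IFN-γ. RefSeq promoter windows of GRCm38.p6, with 250 bases before and 50 after the start, were found for 8 of the 9 members, and Usp18 had no entry. The ISRE core was searched as GAAANNGAAA and the GAS as TTCNNNGAA, on both strands, and matches of the ISRE core to each other may overlap. Isg15 held 3 overlapping ISRE cores, at 78, 72 and 66 bases before the start. The 100 bases before the start are shown for Isg15, with those cores in capitals, beside those of Ube2l6 and Ubd, which are shown because neither motif was found there.

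Isg15 (minus strand, chr4:156200819-156200918): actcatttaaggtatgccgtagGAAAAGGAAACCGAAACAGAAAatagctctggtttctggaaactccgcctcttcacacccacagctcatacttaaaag
Ube2l6 (plus strand, chr2:84798728-84798827): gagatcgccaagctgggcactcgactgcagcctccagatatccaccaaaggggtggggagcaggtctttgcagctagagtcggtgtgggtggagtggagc
Ubd (plus strand, chr17:37193792-37193891): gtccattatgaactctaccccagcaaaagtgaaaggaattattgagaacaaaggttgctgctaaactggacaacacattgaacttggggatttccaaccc

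Trim21 held overlapping ISRE cores after its start, beginning at bases 14 and 20 of the RefSeq transcript, and the stretch with the first of them in capitals was as follows.

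Trim21 (minus strand, chr7:102565450-102565479): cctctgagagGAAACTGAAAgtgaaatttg

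Thus 2 of the 8 members with a window held an exact ISRE core and 0 held a GAS. For Rnf213 the 100 bases before the RefSeq start were chr11:119389999-119390098. Its window thus did not reach the start of the annotated gene, at chr11:119393100, which was not searched. Of all 32851 RefSeq windows, 3.44% held the ISRE core and 8.30% the GAS. With only the bases before the start, the ISRE core was in 1 of 8 members and in 2.98% of all windows. These are matches of letters within a short window, and the absence of a match speaks only of those letters there.

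With IFN-γ, all 9 members rose in OPCs. The modifier Isg15 rose from a handful of reads to 16.4 CPM on average. Its E2 Ube2l6 rose 17.4-fold, its main mouse ligase Herc6 20.5-fold and its protease Usp18 65.5-fold. Uba7, the gene of its E1, rose 118-fold summed over its transcripts, most of it in retained-intron ones, and its coding level was not resolved. The folds of Uba7 and Usp18 rest on few Ctr reads. In edgeR's quasi-likelihood fit, 9 of 9 members were raised at a p adjusted by Benjamini-Hochberg over 18995 genes below 0.05, and 6.65% of all genes tested were raised. All 9 passed the filter on low counts, but Isg15, Uba7 and Ubd only through the groups with IFN-γ. The counts of members called thus include genes let in by their level with IFN-γ. The lowest IFN-γ library was above the highest Ctr library for 9 of 9 members and for 13.5% of all genes tested. The median log2 fold change over the members was 5.05, or 4.54 with Ubd set at its lower bound, against 0.001 over all genes tested.

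**Figure D1:**
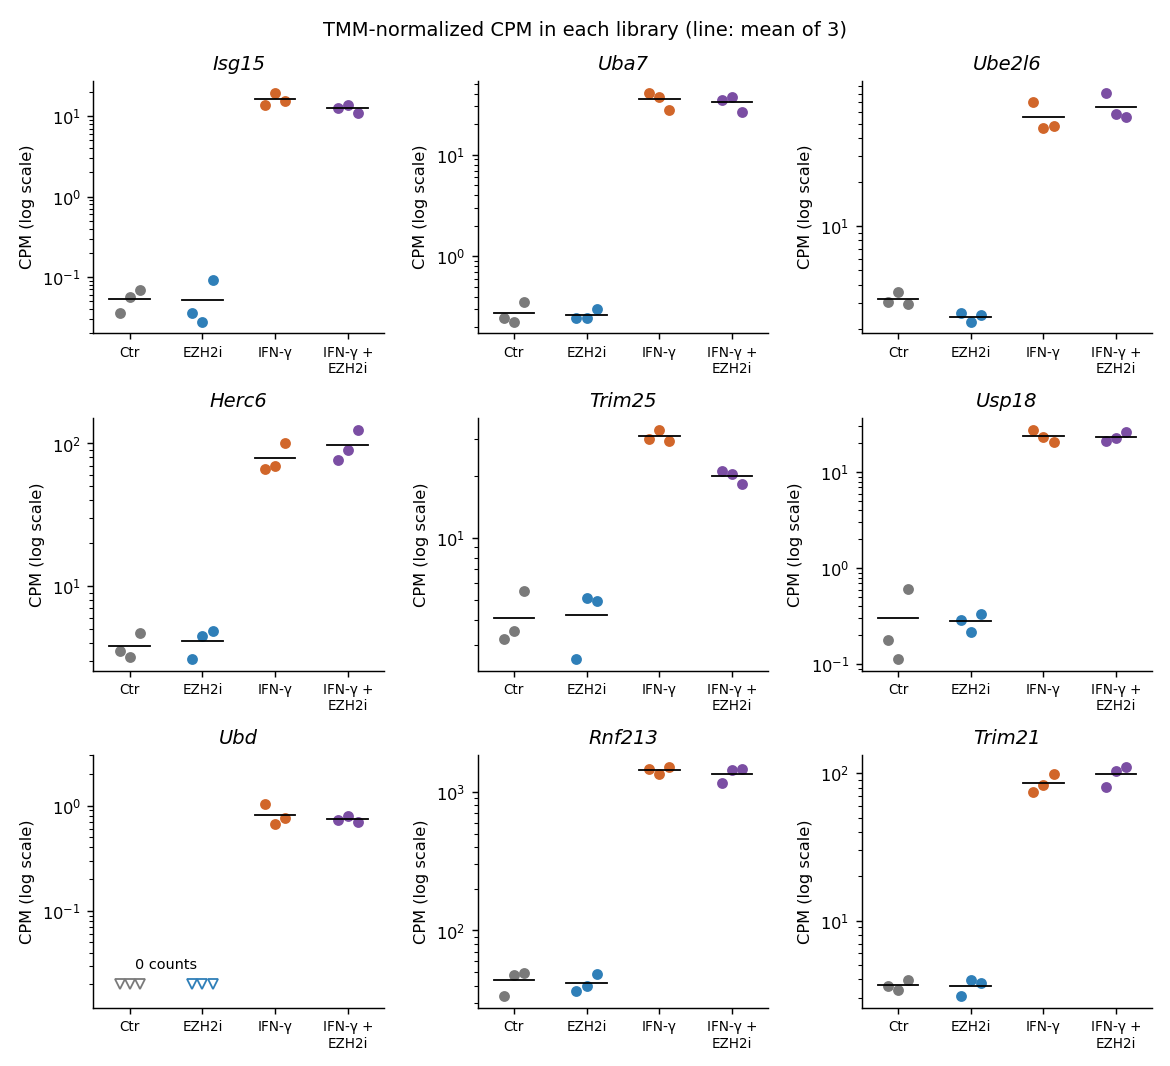
TMM-normalized CPM (log scale) of each of the 9 members in the 12 libraries, by group, with a line at the mean of 3 libraries. Each dot is 1 library and open triangles mark libraries with 0 counts. All members sit higher in both groups with IFN-γ than in both groups without it, and Ubd has 0 counts in the 6 libraries without IFN-γ.

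Isg15 (ENSMUSG00000035692, chr4:156199424-156200818 of GRCm38, minus strand) was nearly silent without IFN-γ. It had 1, 1 and 4 counts in Ctr, or 0.0355, 0.0565 and 0.0679 CPM, and 1, 1 and 6 counts with EZH2i. With IFN-γ it had 414, 742 and 1017 counts, or 13.9, 19.8 and 15.7 CPM. Each library with IFN-γ was thus far above each library without it, and the Ctr libraries were under or just above the floor. The fitted log2 fold change of IFN-γ against Ctr was 8.11 ± 0.35 (SE, n = 3 against 3; edgeR adjusted p = 1.36e-08). Because so few Ctr reads stand behind it, the ratio of summed counts per depth is also given, 287-fold with an exact 95% interval of 132 to 784 that covers counting error only.

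Uba7 (ENSMUSG00000032596, chr9:107975505-107984060, plus strand), which charges ISG15 as its E1, had 7, 4 and 21 counts in Ctr (0.248, 0.226 and 0.356 CPM). With IFN-γ it reached 41.0, 37.2 and 27.4 CPM, summed over all its transcripts. Of its reads with IFN-γ, retained-intron transcripts held 72.1% on average, and the level of its coding transcript was not resolved. The groups were separated by a wide gap, with a log2 fold change of 6.88 ± 0.27 (SE; edgeR adjusted p = 5.25e-09).

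Ube2l6 (ENSMUSG00000027078, chr2:84798828-84810335, plus strand), the E2, was expressed at rest, with 3.05, 3.56 and 2.95 CPM in Ctr. IFN-γ libraries held 70.5, 47.1 and 48.0 CPM, of which replicate 1 was the highest. Its log2 fold change was 4.12 ± 0.22 (SE; edgeR adjusted p = 8.26e-08).

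Herc6 (ENSMUSG00000029798, chr6:57581000-57664632, plus strand) is the main ISG15 ligase in mice. It was at 3.51, 3.16 and 4.66 CPM in Ctr and at 66.2, 69.6 and 101 CPM with IFN-γ. Replicate 3 was the highest in both groups, and the log2 fold change was 4.36 ± 0.27 (SE; edgeR adjusted p = 4.22e-07).

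Trim25 (ENSMUSG00000000275, chr11:88999376-89020293, plus strand), a ligase for ubiquitin in RIG-I signaling that can also act on ISG15, had the smallest change among the members other than Ubd, which has only a lower bound. It was at 3.23, 3.5 and 5.53 CPM in Ctr and at 30.2, 33.4 and 29.5 CPM with IFN-γ. The libraries with IFN-γ were close to each other, and the log2 fold change was 2.90 ± 0.27 (SE; edgeR adjusted p = 1.5e-05).

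Usp18 (ENSMUSG00000030107, chr6:121245906-121270917, plus strand), which removes ISG15 and also dampens signaling from the type I interferon receptor, had 5, 2 and 36 counts in Ctr. That is 0.177, 0.113 and 0.611 CPM, and Ctr replicate 3 stood above the other two. With IFN-γ the libraries held 27.8, 23.4 and 20.6 CPM, for a log2 fold change of 6.03 ± 0.40 (SE; edgeR adjusted p = 7.45e-07). Without Ctr replicate 3 this value was 7.27, and it was still called.

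Ubd (ENSMUSG00000035186, chr17:37193892-37196095, plus strand), which encodes FAT10, was found only in the libraries with IFN-γ. It had 0 counts in all 3 Ctr and all 3 EZH2i libraries, 31, 25 and 49 counts with IFN-γ, and 17, 26 and 28 counts with both agents. In CPM it was at 1.04, 0.666 and 0.756 with IFN-γ, so it stayed low in each of these libraries. Against a floor of 3 counts per Ctr library it was at least 7.53-fold higher with IFN-γ, and it passed the test (edgeR adjusted p = 0.000355).

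Rnf213 (ENSMUSG00000070327, chr11:119393100-119487418, plus strand), a giant ubiquitin ligase known for variants that raise the risk of moyamoya disease, took the most reads. It was at 33.5, 47.8 and 49.7 CPM in Ctr and at 1460, 1350 and 1520 CPM with IFN-γ. Ctr replicate 1 was the lowest library, each library with IFN-γ lay far above Ctr, and the log2 fold change was 5.05 ± 0.20 (SE; edgeR adjusted p = 5.82e-09).

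Trim21 (ENSMUSG00000030966, chr7:102557921-102565486, minus strand), a ligase that binds antibodies in the cytosol, was at 3.62, 3.39 and 3.94 CPM in Ctr. With IFN-γ it was at 74.7, 83.5 and 98.7 CPM, and the log2 fold change was 4.54 ± 0.18 (SE; edgeR adjusted p = 5.82e-09). Both groups were tight, and they lay far apart.

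In cells that had first received EZH2i, the same comparison again raised all 9 members. By edgeR, 9 of 9 were called higher in IFN-γ with EZH2i than in EZH2i alone, against 5.90% of all genes tested, and 11.0% in the fit blocked on replicate number, which also called all 9. Every library with both agents was above every EZH2i library for 9 of 9 members and for 11.8% of all genes. The log2 fold changes, beside those against Ctr, were 7.65 ± 0.34 (SE) for Isg15, 6.90 ± 0.26 for Uba7 and 6.34 ± 0.41 for Usp18. Without EZH2i replicate 3, which held 6 of the 8 EZH2i counts of Isg15, the value for Isg15 was 8.51. Ube2l6 rose by 4.75 ± 0.22, Herc6 by 4.55 ± 0.27 and Trim25 by 2.23 ± 0.26, each on the log2 scale. Rnf213 rose by 5.03 ± 0.20 and Trim21 by 4.78 ± 0.18, and Ubd was at least 9.42-fold higher against the same floor. The median over the members was 5.03, or 4.78 with Ubd at its bound, and 0.002 over all genes.

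**Figure D2:**
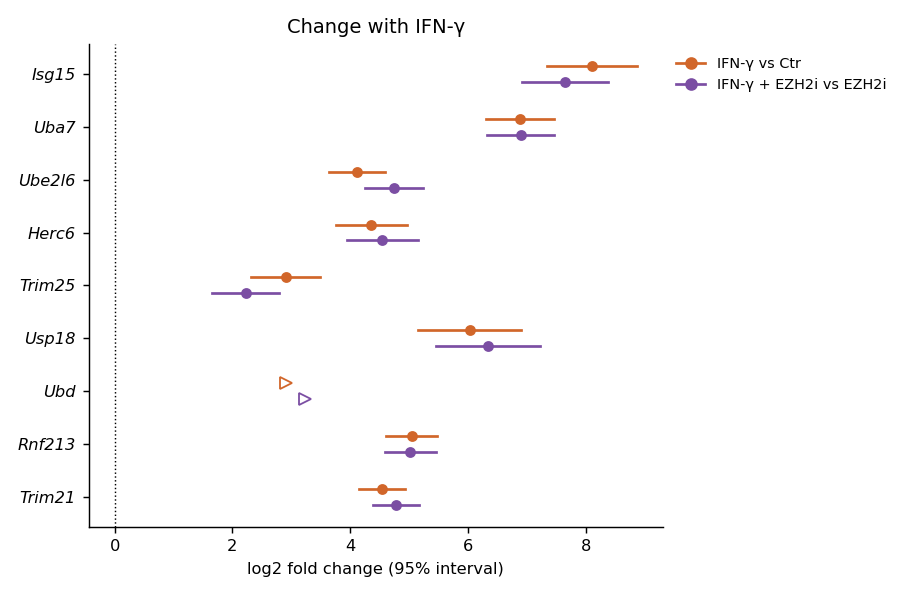
Log2 fold change of each member with IFN-γ, without EZH2i (orange) and with EZH2i (purple), with 95% intervals from the edgeR fit of 12 libraries. Open triangles for Ubd are lower bounds against a floor of 3 counts per library. All values lie to the right of 0, and the intervals of each of the other 8 members overlap between both comparisons.

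Whether EZH2i changed the response was tested directly with the interaction. No member was called, and neither was any gene (0% of 18995, of which 127 had an unadjusted p below 0.05 in edgeR and 0 were called by DESeq2). Ube2l6 was the only member with an unadjusted p below 0.05, and its interaction was 0.63 on the log2 scale (95% interval 0.01 to 1.24; edgeR adjusted p = 1). For Trim25 it was -0.68 (-1.46 to 0.10; edgeR adjusted p = 1). Isg15 gave -0.45 with a wide interval of -1.74 to 0.83, beside its few reads without IFN-γ. Intervals were narrower for Rnf213, at -0.02 (-0.54 to 0.49), and for Trim21, at 0.23 (-0.26 to 0.72). For Ubd the interaction could not be estimated, as both groups without IFN-γ were at 0.

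EZH2i on its own moved no member past the test. By edgeR, 0 of 8 members with reads were called between EZH2i and Ctr, beside 0.405% of all genes (77 genes, all higher with EZH2i), and Ubd was at 0 counts on both sides. Of these 8, the unadjusted p of 0 was below 0.05. Ube2l6 was at 2.54, 2.22 and 2.47 CPM with EZH2i, so that its 3 Ctr libraries all lay above. It was the only member with such a gap, which 5.34% of all genes showed in that direction, and its log2 fold change was -0.39 ± 0.21 (SE; edgeR adjusted p = 0.816). Uba7 was at 0.250, 0.247 and 0.304 CPM with EZH2i, within the range of Ctr. Isg15 was at 0.0357, 0.0274 and 0.0911 CPM with EZH2i, and its log2 fold change of 0.07 had an interval of -1.06 to 1.2. At this depth a change of that width was not detectable in Isg15. Usp18 was at 0.286, 0.219 and 0.334 CPM, between the lowest and the highest Ctr library, and its log2 fold change of -0.34 became 0.90 (edgeR adjusted p = 0.672) without Ctr replicate 3. For the better measured ligases the intervals were narrower, from -0.44 to 0.29 for Rnf213 and from -0.38 to 0.34 for Trim21.

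Under IFN-γ, adding EZH2i again moved no member past the test. Of 9 members, 0 were called by edgeR, beside 0.353% of all genes, and 0 were called with the replicate block, beside 3.94%. The lead among the members was Trim25, at 21.0, 20.3 and 18.2 CPM with both agents. Each of these libraries was below each library with IFN-γ alone, where the lowest held 29.5 CPM. Only Trim25 among the 9 showed this gap, and 4.26% of all genes had it in the same direction. Its log2 fold change was -0.65 ± 0.25 (SE; 95% interval -1.19 to -0.11; edgeR adjusted p = 0.609), and its unadjusted p alone was below 0.05 among the members. By replicate number the log2 differences were -0.52, -0.72 and -0.69. The adjusted p ranged from 0.0632 to 0.958 over the alternatives, the lowest with the block and without the Ctr libraries.

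The modifier Isg15 was at 12.7, 14 and 11.1 CPM with both agents, 2 of 3 below every IFN-γ library, and its log2 fold change was -0.38 (-0.85 to 0.09; edgeR adjusted p = 0.899). Herc6 went the other way, at 76.4, 90.3 and 125 CPM with both agents. Its log2 fold change was 0.30 (-0.20 to 0.81; edgeR adjusted p = 0.999), and the groups overlapped. Ube2l6 was at 81.7, 58.0 and 55.2 CPM and Trim21 at 81.5, 104 and 111 CPM, and both overlapped with IFN-γ alone. By replicate number, Herc6, Ube2l6 and Trim21 were each higher with both agents in 3 of 3 pairs, and Isg15, like Trim25, was lower in 3 of 3. Uba7, Usp18, Rnf213 and Ubd had both signs. The share of all genes with the same sign in 3 of 3 pairs was not counted, and none of the members passed the test. No effect is therefore read from these signs. Uba7 was at 34.9, 37.4 and 26.5 CPM, with a log2 fold change of -0.10 (-0.50 to 0.31). Usp18 was at 21.0, 23.0 and 26.4 CPM, with a log2 fold change of -0.03 (-0.68 to 0.62). For Rnf213, at 1170, 1430 and 1460 CPM, it was -0.10 (-0.46 to 0.27), and for Ubd, at 0.726, 0.790 and 0.696 CPM, it was -0.15 (-1 to 0.71). The median over the members was -0.10, against -0.005 over all genes.

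**Figure D3:**
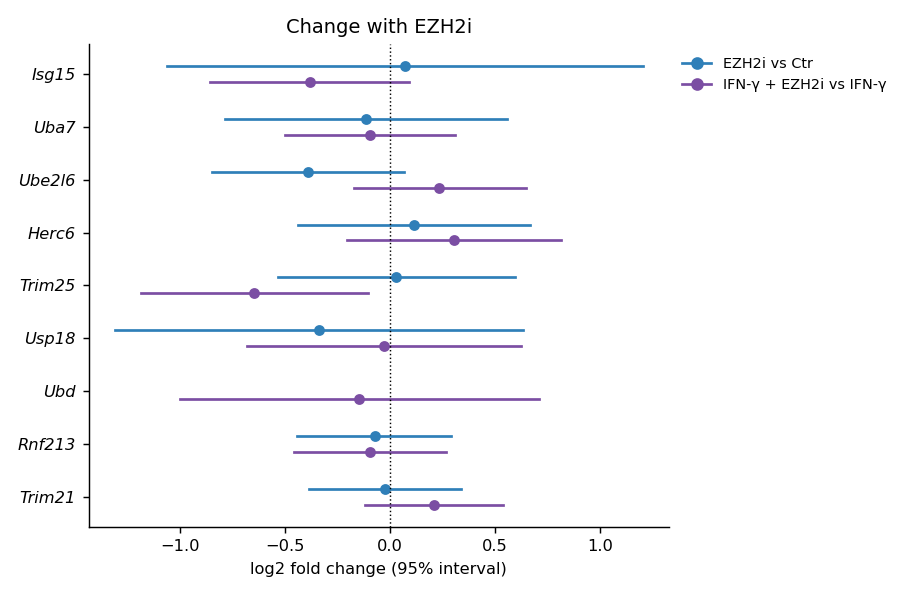
Log2 fold change of each member with EZH2i, without IFN-γ (blue) and with IFN-γ (purple), with 95% intervals from the edgeR fit. Ubd has no value without IFN-γ, where it had 0 counts. Each interval spans 0 but that of Trim25 under IFN-γ (-1.19 to -0.11), which did not pass the adjusted test.

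Per transcript length, the levels of the members with IFN-γ were set in order in TPM. Rnf213 led at 65.9 ± 3.06 TPM (SD, n = 3), followed by Trim21 at 41.8 ± 2.28 and Ube2l6 at 32.6 ± 5.38. Isg15 came next at 23.2 ± 6.25 TPM and Herc6 at 18.3 ± 4.84. Uba7 was at 13.6 ± 2.85 TPM, Usp18 at 13.0 ± 2.07, Trim25 at 6.34 ± 1.17 and Ubd at 0.859 ± 0.162. The libraries of neighbours in this order overlapped from Ube2l6 down to Usp18, whereas Rnf213, Trim21, Trim25 and Ubd stood apart from their neighbours. These values and the places below sum all transcripts of a gene, retained-intron ones included. In its main coding transcript alone, Trim21 was at 16.6, 23.8 and 23.3 TPM with IFN-γ. Ube2l6 was at 37.0, 28.4 and 24.4 TPM in its own, so the order of this pair turns. The place of Uba7 is not that of its coding transcript. In Ctr the order was Trim21 (2.01 ± 0.590 TPM), Rnf213 (1.83 ± 0.708), Ube2l6 (1.62 ± 0.363), Herc6 (0.938 ± 0.519) and Trim25 (0.802 ± 0.294), each overlapping with the next. Usp18 followed at 0.281 ± 0.237 TPM, overlapping with Trim25. Uba7 (0.0897 ± 0.0262 TPM) and Isg15 (0.0672 ± 0.033 TPM) were lower than these and overlapped with each other.

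Placed among the 18995 genes tested, Isg15 had a mean TPM above 4.11% of them in Ctr and above 80.9% with IFN-γ. For Uba7 these shares were 5.84% and 70.0%, and for Rnf213 40.0% and 94.1%. Trim25 went from 30.8% to 54.7%, the middle of the range. With both agents the order was the same as with IFN-γ at its top and bottom, with Rnf213 at 56.8 ± 6.17 TPM and Ubd at 0.712 ± 0.0957, while Herc6 stood above Isg15 and Usp18 above Uba7, each pair with overlapping libraries. EZH2i alone put Rnf213 (2.02 ± 0.240 TPM) before Trim21 (1.81 ± 0.452), also overlapping.

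The transcripts behind these gene values differed between members. Isg15 and Ubd have 1 annotated transcript each. Rnf213 and Trim25 have 3 each, all of them coding. Uba7 has 15 annotated transcripts, of which 1 is coding and 10 are retained introns. With IFN-γ, the retained-intron transcripts held 70.3% to 78.6% of the TPM of Uba7 and the coding one 0% to 0.265%. With both agents the coding transcript held at most 3.08%. For Trim21 the retained-intron transcripts held 44.1% to 56.2% of the TPM with IFN-γ and 13.7% of its reads on average. For Herc6 they held 31.9% to 33.9% of the TPM, and for Usp18 10.1% to 12%. Salmon splits reads among transcripts that overlap, and these libraries are of total RNA, and the level of a coding Uba7 mRNA was not resolved here.

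Some members overlap other annotated genes. Gm45193 lies within Herc6 on the same strand and had 67 summed counts in Ctr and 721 with IFN-γ, against 430 and 11111 for Herc6. A930037H05Rik lies opposite the end of Rnf213, with 393 and 3449 counts, against 4725 and 192794. Gm20661 overlaps the end of Uba7 with at most 26 counts in a group, and Gm44148 lies opposite Usp18 with at most 25. The strand setting of the counting is not given in the sources used here, so reads of such partners cannot be told apart from those of the member.

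The inducible enzymes were set beside their constitutive relatives of the ubiquitin pathway. Uba1, the E1 of ubiquitin, was at 125 ± 19.1 TPM in Ctr and 140 ± 25.7 TPM with IFN-γ (SD, n = 3), and its log2 fold change was 0.09 ± 0.15 (SE; edgeR adjusted p = 0.833). With IFN-γ, Uba7 summed over its transcripts reached 13.6 TPM beside 140 for Uba1. Retained-intron transcripts held 70.3% to 78.6% of that Uba7 value, so it is not a level of coding E1 mRNA. Ube2l3, the closest relative of Ube2l6, was at 67.7 ± 12.4 TPM in Ctr and 74.8 ± 3.59 with IFN-γ, with a log2 fold change of -0.07 ± 0.18 (edgeR adjusted p = 0.908). Ube2l6 reached 32.6 TPM beside it.

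**Figure D4:**
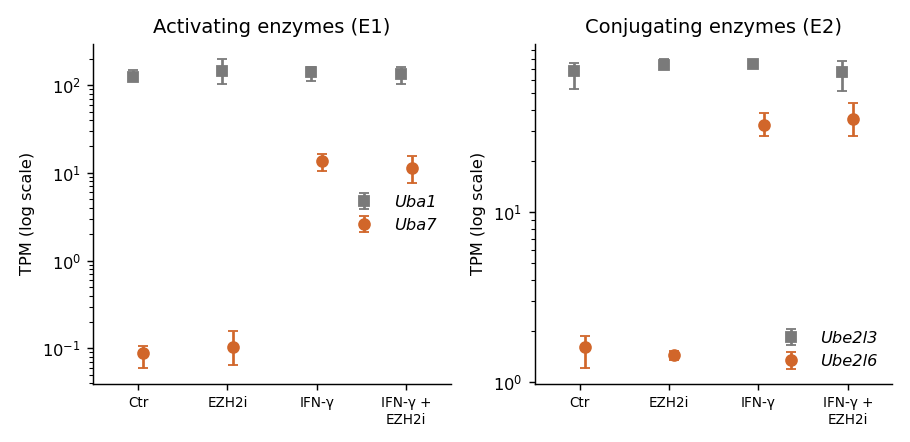
Mean TPM (log scale) of the activating and the conjugating enzymes in the 4 groups, each as a constitutive ubiquitin gene (grey squares) and its interferon-linked counterpart (orange circles), with bars from the lowest to the highest of 3 libraries. Uba1 stays at 125 to 145 TPM and Ube2l3 at 67.2 to 74.8 TPM, and the counterparts rise from at most 1.62 TPM to between 11.3 and 35.5 TPM in the groups with IFN-γ. Values of Uba7 sum all its transcripts, and the level of its coding one was not resolved.

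Of the 16 genes listed as constitutive ubiquitin machinery, 2 rose with IFN-γ, beside 6.65% of all genes tested. None fell and 14 did not pass the test, with a median log2 fold change of 0.15. The pair that rose was Rnf31 and Rbck1, subunits of the linear ubiquitin ligase complex. Rnf31 went from 20.9 ± 4.46 to 63.4 ± 11.6 CPM (log2 fold change 1.60 ± 0.21 SE; edgeR adjusted p = 0.00031) and Rbck1 from 51.9 ± 2.73 to 92.2 ± 9.76 CPM (0.83 ± 0.12; adjusted p = 0.000931). Both were also called in the cells with EZH2i, where the log2 fold changes were 1.49 and 0.80. The third subunit, Sharpin, gave 0.33 ± 0.18 (edgeR adjusted p = 0.378) and is named here after its value was seen.

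Other enzymes reported to act on ISG15 did not pass the test. Of Arih1, Ube2e1, Usp5, Usp13, Usp14, Usp16 and Usp21, 0 of 7 were called in edgeR in either comparison with IFN-γ, and the median log2 fold change was 0.12 without EZH2i and 0.08 with it. Among the 4 partners of FAT10, and beside the same shares of all genes, only Nub1, which links FAT10 to the proteasome, was called. It went from 41.4 ± 4.25 to 118 ± 7.27 CPM (log2 fold change 1.51 ± 0.12 SE; edgeR adjusted p = 3.64e-06), and it rose by 1.54 in cells with EZH2i. Uba6 and Ube2z, the E1 and E2 of FAT10, gave 0.03 ± 0.13 and 0.16 ± 0.13 (edgeR adjusted p = 0.956 and 0.615). None of the 4 lists had a gene called with EZH2i, with or without IFN-γ.

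Trim21 and Trim25 belong to the TRIM family of RING ligases, of which 67 other genes are annotated and 46 passed the filter on low counts. With IFN-γ, 11 of the 46 rose, 0 fell and 35 did not pass the test, with a median log2 fold change of 0.20. In the cells with EZH2i, 12 of the 46 rose and 0 fell, with a median of 0.09. Both shares lie above the 6.65% and 5.90% of all genes that were raised, which is a description and not a test of the list. Some of the raised genes, Trim5, Trim69 and Trim12a among them, passed the filter only through the groups with IFN-γ. The largest changes at 1 CPM or more were those of Trim12c, from 0.455 ± 0.103 to 20.3 ± 3.64 CPM (log2 fold change 5.43 ± 0.27 SE; edgeR adjusted p = 4.9e-08), Trim12a (5.16 ± 0.63; 0.000185) and Trim34a (5.04 ± 0.61; 0.000167). These 3 have close paralogs, among which reads may have been split, and Trim34a had 0 counts in at least 1 Ctr library. Trim56, named after its value was seen, was at 208 ± 19.5 CPM with IFN-γ, from 24.6 ± 3.23 CPM in Ctr.

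**Figure D5:**
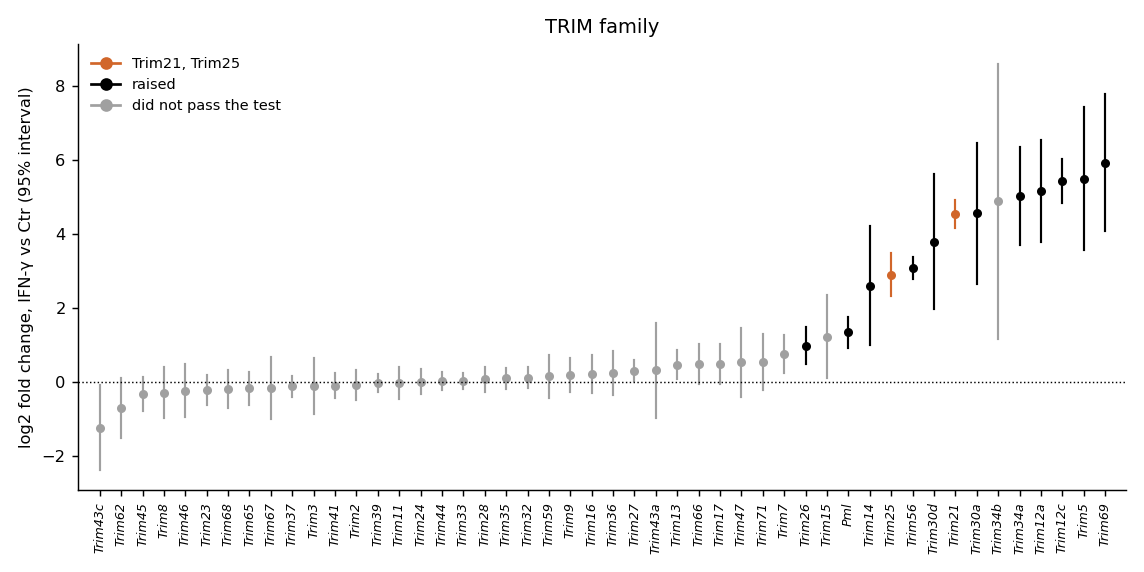
Log2 fold change with IFN-γ against Ctr, with 95% intervals, for the 46 TRIM family genes past the filter (black where raised, grey where the test was not passed) and for Trim21 and Trim25 (orange), in rising order. Trim21 (4.54) and Trim25 (2.90) lie among the 11 raised genes. Trim5 and Trim69, at the right end, rest on 1 count each over the 3 Ctr libraries.

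The profiles of the 9 members over the libraries were compared as a description. Over the 12 libraries, each member's log2 CPM was correlated with the mean of the standardized members, that member included. Pearson's r ranged from 0.975 for Trim25 to 0.999 for Rnf213. Among 14673 other genes at a mean of 1 CPM or more, those most like this mean included Gm12216 (r = 0.9987), Nlrc5 (0.9985), Apol9a (0.9982) and Cmpk2 (0.9982). Nlrc5, an activator of MHC class I genes, went from 1.74 to 755 CPM on average. These are descriptions over 12 libraries that share their groups and depth, and in which IFN-γ separates the libraries for all 9 members. High values of r follow from that separation, and they do not show how the members move within a group.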

How the data were processed

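RNA-seq was measured in 12 libraries of cultured mouse OPCs. The authors prepared stranded, ribodepleted total RNA libraries, trimmed the read pairs and quantified them with Salmon 0.8.2. The deposited estimated count of a transcript is the unscaled number of read pairs that Salmon gave it, and the deposited TPM values were computed by the authors from the same reads and the effective lengths. STAR and DESeq2 are also named in the submitters' processing notes. The other 2 deposited tables hold the authors' own DESeq2 comparisons (mean counts, log2 fold changes, standard errors, statistics and p-values per gene) and were not used.

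Estimated counts were summed per gene in GENCODE vM21 (GRCm38), which held all 141862 transcripts, and rounded. The methods name Ensembl, release 75, as the annotation, whereas the transcript identifiers match GENCODE vM21. Genes that passed edgeR's default filter (18995 of 55536) were tested in R 4.3.3 with edgeR 4.0.16 (TMM, quasi-likelihood, group as the only term) in one fit of the 12 libraries. Genes with a Benjamini-Hochberg adjusted p below 0.05 over all genes tested were called, and intervals are at 95%. Library totals ranged over 3.82 times. For Isg15, Uba7 and Usp18 against Ctr, which rest on few reads, an exact (Clopper-Pearson) counting interval is given, and other ratios carry none. Standard errors were derived from the fold change and the F statistic.

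All 9 members are described. Of each of 4 lists (other ISG15 enzymes, FAT10 partners, TRIM family, constitutive ubiquitin machinery), up to 3 called genes with the largest change with IFN-γ and a mean of at least 1 CPM are named, plus Uba1 and Ube2l3. The 5 genes most like the members' mean were ranked by Pearson's r of log2(CPM + 0.5). Some genes picked by these rules are not reported here. The members and lists were chosen with earlier results of these data known.

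Pairing by replicate number was checked from how far each library lay from its group mean over genes. Same-numbered libraries correlated at 0.493 to 0.642 for the 2 groups with IFN-γ, and at 0.496 to 0.621 for the 2 groups with EZH2i. With Ctr they were 0.411 to 0.544 for replicates 1 and 3, but 0.0134 to 0.0854 for replicate 2. Replicate numbers are therefore read as pairs except for Ctr. The labels state different litters but tie no litter to a number. No 2 libraries of a group agreed within sampling noise.

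Alternatives were RLE factors, DESeq2 1.42.0, no filter, at least 10 counts in every library, the replicate block, only the 6 libraries of a comparison, length-scaled TPM, no mitochondrial and rRNA genes, and each library left out in turn. A block over the 9 libraries without Ctr was added after seeing the data. The fit was tested on simulated data. Promoter sequences are from RefSeq (GRCm38.p6). Chromatin data were not analysed here.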

Additional observations from a re-analysis of the deposited data

How the results depend on the processing

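All 9 members stayed called with IFN-γ, with and without EZH2i, and none was called in the other 3 comparisons, under each alternative that could give a value, with 1 exception made by construction. At least 10 counts in every library left out Isg15, Uba7, Usp18 and Ubd, so 5 members were called in each comparison with IFN-γ. Depth limits these 4 most, as their levels without IFN-γ rest on few reads. The replicate block changed no call of a member and moved the counts over all genes. It called 4032 for IFN-γ against Ctr and 3661 for IFN-γ in cells with EZH2i (4267 without the Ctr libraries), and 771 for EZH2i alone and 748 for EZH2i under IFN-γ (933 without the Ctr libraries). For EZH2i alone, the count over all genes was 308 by DESeq2, 121 without a filter, 29 with at least 10 counts in every library, 33 with only the 6 libraries and 49 with length-scaled TPM. Under IFN-γ the count for EZH2i was 264 by DESeq2, 11 with at least 10 counts, 7 with only the 6 libraries and 31 with length-scaled TPM. Leaving out 1 library at a time gave 11 to 83 genes for EZH2i alone and 10 to 65 under IFN-γ, lowest without Ctr replicate 3 and without IFN-γ replicate 2. Shifts over 1.5 times came with Ctr replicates 1, 2 and 3 and EZH2i replicates 1 and 2 in either comparison. They also came with replicate 2 of both agents for EZH2i alone, and with IFN-γ replicates 1, 2 and 3 and replicates 1 and 2 of both agents under IFN-γ. The cause of these shifts was not tested.

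Directions turned only for log2 fold changes that had not passed the test. With length-scaled TPM these were Herc6 (-0.16) and Trim25 (-0.01) for EZH2i alone, and Uba7 (-0.13) and Rnf213 (0.01) for the interaction. With 1 library left out, EZH2i alone gave -0.80 to 0.42 for Isg15, -0.25 to 0.19 for Uba7, -0.02 to 0.31 for Herc6, -0.12 to 0.33 for Trim25, -0.61 to 0.90 for Usp18, -0.22 to 0.03 for Rnf213 and -0.09 to 0.07 for Trim21. Under IFN-γ it gave -0.25 to 0.04 for Uba7, -0.13 to 0.09 for Usp18 and -0.27 to 0.05 for Ubd. The interaction ranged over -0.80 to 0.41 for Isg15, -0.28 to 0.15 for Uba7, -0.04 to 0.40 for Herc6, -0.93 to 0.58 for Usp18 and -0.13 to 0.13 for Rnf213. Usp18 turned, for EZH2i alone and for the interaction, when Ctr replicate 3 was left out.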
